A study of Drosophila melanogaster with 6 samples.

Results

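Inward rectifier and leak potassium channels were followed through 5 fly genes, the inward rectifiers Irk1, Irk2 and Irk3 and the two-pore leak channels Ork1 and sand, out of 13402 named genes on the array. A gene was taken from the array rows that the platform's annotation assigns to that symbol alone, and the row of highest mean stood for it. The 5 genes had 6 rows among 16322, because Irk1 had 2. All 5 stayed in when the dimmest 25% of rows were left out.

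RNA came from heads of Drosophila melanogaster and was hybridised to 6 arrays of the type Drosophila Gene 1.0 ST, of which 3 held a pool and 3 held controls. The pool mixed equal amounts of RNA from 7 bang-sensitive lines, flies that seize after a mechanical shock. In each line repo-GAL4, a driver of nearly all glia, was crossed to SesB-RNAi, COX7A-RNAi, comt-RNAi, nrv2-RNAi, ATPalpha-RNAi, UAS-Dube3a or UAS-htt.12Q.FL. Controls carried the same repo-GAL4 driver with an empty TRiP RNAi vector. Flies of both groups were raised at 25 °C and were about 3 to 5 days old, with 15 to 25 heads taken per genotype. No line targets a gene of the inward rectifier or leak channel set. Because the 7 lines were mixed before hybridisation, a pool value is their average and shows nothing of any single line. Whether arrays of 1 group hold RNA of separate cultures is not stated, so the p-values measure the spread between arrays, which may be technical.

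The labels call the tissue brain. The neuronal gene elav read 9.64 ± 0.08 log2 units in the pool and 9.50 ± 0.07 in controls, and the glial gene repo 7.82 ± 0.05 and 7.99 ± 0.04 (SD, n = 3 each). Both stood above 4.23, below which lay the dimmest 25% of rows. Markers of eye, muscle and fat body also gave signal, and the protocol names heads as the source. Of the altered genes, Ube3a (Dube3a) rose 1.96-fold, and sesB, COX7A and nrv2 did not pass the test (limma adjusted p = 0.000150, 0.713, 0.786 and 0.592). Values of the targets comt and ATPalpha and of the htt transgene are not given here.

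Inward rectifiers are potassium channels that pass current into the cell more easily than out of it, which holds the resting potential near the potassium equilibrium. In vertebrate glia such a channel takes up potassium that active neurons release. Two-pore leak channels stay open at rest and carry a steady background potassium current. In the fly, Irk1 and Irk2 are best known for potassium transport in the Malpighian tubule, Ork1 for slowing the heartbeat, and sand for silencing sleep-promoting neurons of the central brain.

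Of the 5 genes, Irk3, Ork1 and Irk2 fell in the pool, by 1.35-fold, 1.25-fold and 1.21-fold. The levels of sand and Irk1 were 1.12-fold and 1.07-fold lower and did not pass the test. Each difference is the pool mean minus the control mean in log2 units, tested with limma over all rows and called at a Benjamini-Hochberg adjusted p under 0.05. Of all rows, 2.90% were called, and 1.24% were called lower in the pool. The 3 called genes are a majority of the 5, but they were picked for study with these results known. In bulk heads, fewer cells of a type and less RNA per cell cannot be told apart.

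Irk3, the third inward rectifier gene, had the largest difference. It read 7.48, 7.37 and 7.43 log2 units on the pool arrays, against 7.73, 7.93 and 7.92 on the control arrays. The 3 pool values lay close together, and the highest of them was 0.26 below the lowest control value, that of control replicate 1. The pool mean was 7.43 ± 0.05 and the control mean 7.86 ± 0.11 (SD, n = 3 each). The log2 difference was -0.44 with a standard error of 0.069 and a 95% interval of -0.60 to -0.28 (limma adjusted p = 0.0171). In linear terms the pool stood at 73.9% of the control level. Of all rows, 0.754% had a lower difference.

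Irk2, an inward rectifier gene also needed for wing patterning, had the smallest standard error of the 5 genes. Pool arrays read 9.09, 9.06 and 9.04 log2 units, against 9.39, 9.33 and 9.29 on control arrays. The groups were 0.20 apart at their nearest values. The log2 difference was -0.27 with a standard error of 0.052 and a 95% interval of -0.39 to -0.15 (limma adjusted p = 0.0356). The pool stood at 82.8% of the control level, and 2.41% of rows had a lower difference.

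Irk1, the first inward rectifier gene, did not separate the groups. Its row of higher mean read 6.31, 6.24 and 6.48 log2 units on the pool arrays, against 6.65, 6.34 and 6.31 on the control arrays. The groups overlapped, and control replicate 1 stood above all other arrays. The log2 difference was -0.10 with a 95% interval of -0.34 to 0.14 (limma adjusted p = 0.746), and it turned to 0.01 without control replicate 1. The second row read 6.35, 6.26 and 6.27 in the pool, against 6.23, 6.38 and 6.45 in controls, with a difference of -0.05 and a 95% interval of -0.21 to 0.10 (limma adjusted p = 0.786). Here control replicate 1 was the lowest of the 6 arrays, so the 2 rows disagreed most on that array, by 0.43. The intervals of both rows overlap that of Irk2, -0.39 to -0.15. RefSeq lists 7 transcripts for Irk1, and the sources used here do not say which of them each row reads.

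Ork1, the open rectifier leak channel gene, read 7.19, 7.34 and 7.32 log2 units on the pool arrays, against 7.58, 7.66 and 7.58 on the control arrays. The groups were 0.24 apart at their nearest values, and pool replicate 1 was the lowest. The log2 difference was -0.32 with a standard error of 0.061 and a 95% interval of -0.46 to -0.18 (limma adjusted p = 0.0334). The pool stood at 80.0% of the control level, and 1.65% of rows had a lower difference.

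The leak channel gene sand (sandman) read 4.69, 4.69 and 4.48 log2 units on the pool arrays, against 4.74, 4.84 and 4.78 on the control arrays. The groups did not overlap, but the nearest values were 0.05 apart, and pool replicate 3 stood well below the other pool arrays. The log2 difference was -0.17 with a standard error of 0.071 and a 95% interval of -0.33 to -0.003, and it did not pass (limma adjusted p = 0.328). All its values lay above the 4.23 below which the dimmest 25% of rows fell.

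**Figure D1:**
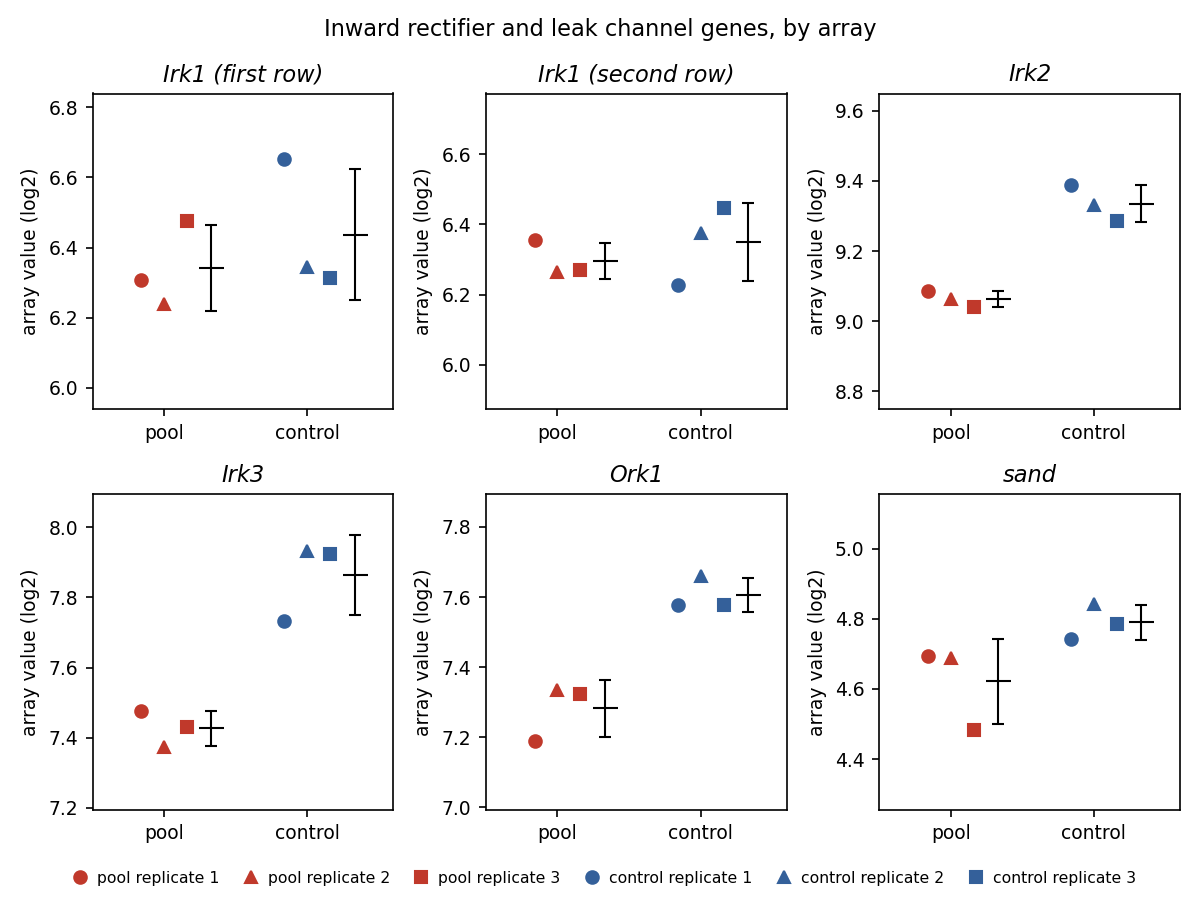
Log2 array values of the 6 rows of Irk1, Irk2, Irk3, Ork1 and sand in the 3 pool arrays (red, left) and 3 control arrays (blue, right), with the mean and SD in black and an equal span of 0.9 log2 units on every axis. Irk2, Irk3 and Ork1 show a gap of 0.20 to 0.26 between the groups, sand a gap of 0.05, and both rows of Irk1 overlap.

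Few of the calls held with an array left out. Without pool replicate 1, 2 or 3 the test called 0 of the 5 genes, and it called 1 without control replicate 1 and 0 without control replicate 2 or 3. The gene that remained called was Irk3 (limma adjusted p = 0.0149 without control replicate 1), and its adjusted p reached 0.0773 on leaving out another array. Adjusted p was 0.0615 to 0.134 for Irk2 and 0.0738 to 0.121 for Ork1 with 1 array left out. The differences themselves stayed between -0.50 and -0.40 for Irk3, between -0.30 and -0.24 for Irk2 and between -0.35 and -0.28 for Ork1. Fewer arrays lower the number of calls over the whole table as well, to between 218 and 312 of 16322 rows against 473 with all arrays.

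**Figure D2:**
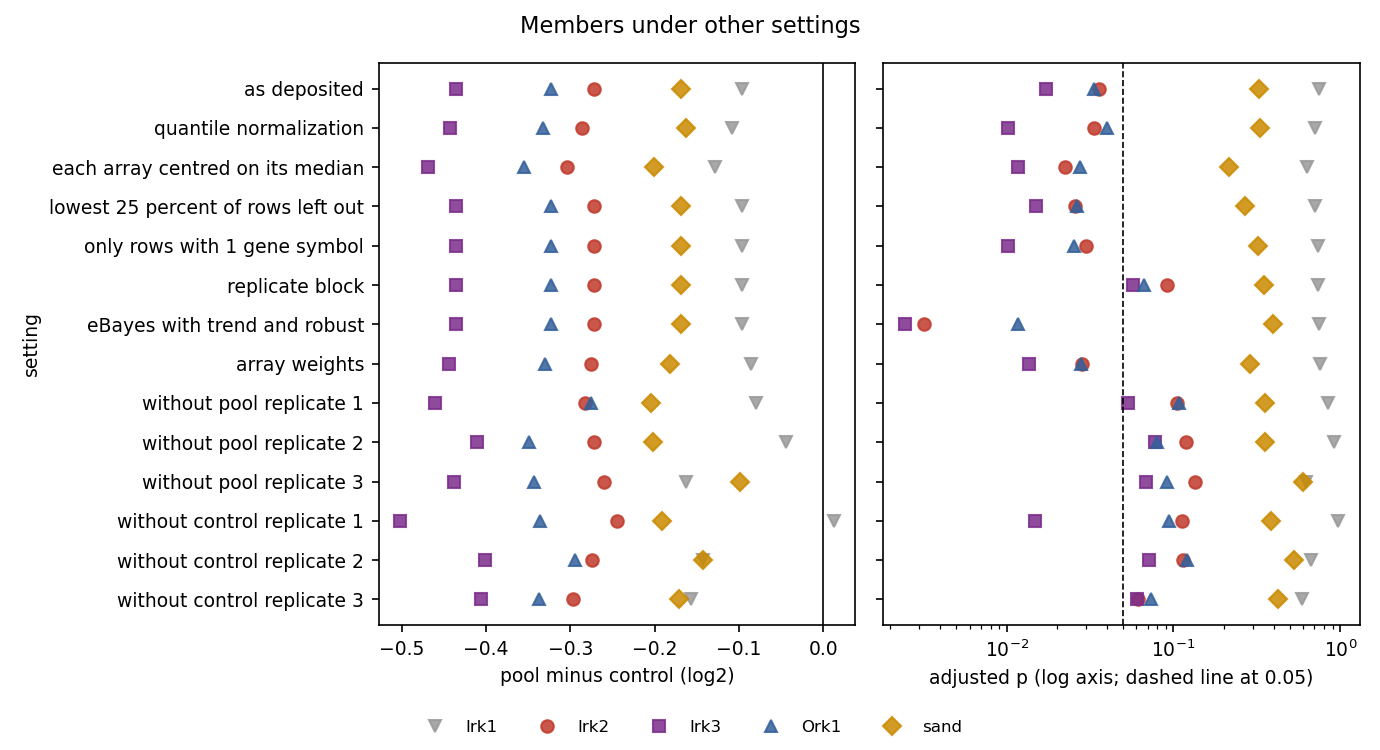
Pool minus control in log2 units (left) and limma adjusted p on a log axis (right) for the 5 genes, as deposited and under 13 other settings, with 1 setting per line. Irk3, Irk2 and Ork1 keep their distance below 0 throughout. Their adjusted p crosses the dashed line at 0.05 with the replicate block and when any single array is left out, except for Irk3 without control replicate 1.

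In 4 of the 5 genes the 3 pool values lay entirely below the 3 control values, the exception being Irk1. The same was true of 10% of all rows, and 21.5% had groups apart in either direction. The median log2 difference of the 5 genes was -0.27, beside -0.00 over all named genes, of which 50.3% were lower in the pool. Within a group the genes did not keep 1 order of arrays. Control replicate 1 was the highest control array for Irk2 and the lowest for Irk3 and sand, while control replicate 2 was the highest for Irk3, Ork1 and sand. In the pool, replicate 1 was the highest array for Irk2, Irk3 and sand but the lowest for Ork1.

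**Figure D3:**
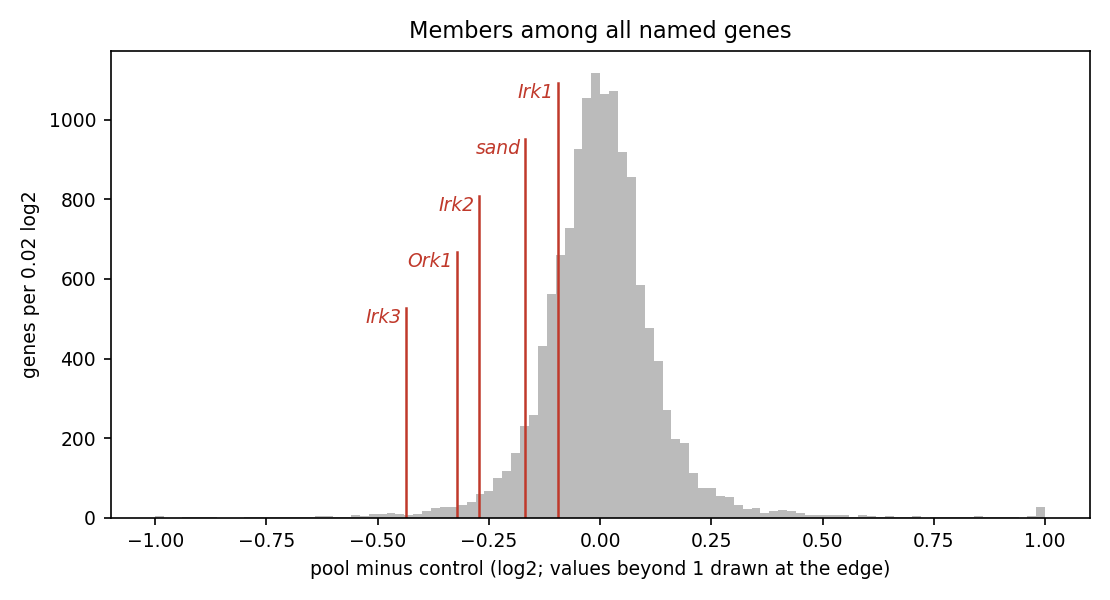
Number of named genes (of 13402) at each log2 difference, pool minus control, in bins of 0.02, with the 5 channel genes as red lines whose heights carry no value. Irk3 at -0.44, Ork1 at -0.32 and Irk2 at -0.27 lie in the lower tail, sand at -0.17 on its shoulder and Irk1 at -0.10 within the main body.

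Whether the genes fell by unequal amounts was asked in all 10 pairs, from the within-array difference of 2 genes. With 3 arrays against 3 the smallest two-sided p of the exact permutation test is 0.1, so no pair could pass and the sizes are given as a description. Irk3 minus sand was the 1 pair whose groups did not overlap, at 2.81 ± 0.13 in the pool and 3.07 ± 0.08 in controls (SD, n = 3 each; exact permutation p = 0.1, adjusted over the 10 pairs 0.429). A p of 0.1 in 1 of 10 pairs is no more than the permutation test gives without any unequal change. The change of Irk3 minus sand was -0.27, and it was -0.34 to -0.21 with any 1 array left out. Its 95% interval of -0.51 to -0.02, from the pooled spread of the arrays, is not adjusted for the 10 pairs. Between Irk2 and Ork1 the change was 0.05, with an interval of -0.15 to 0.25, and between Irk2 and Irk3 it was 0.16, with an interval of -0.10 to 0.43. Between Irk3 and Ork1 it was -0.11, with an interval of -0.37 to 0.14. Pairs with Irk1 had the widest intervals, up to -0.18 to 0.86 for Irk1 minus Irk3.

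None of 20 other potassium channel genes passed the test, and most were slightly higher in the pool. All 9 other two-pore channel genes of the list were measured and 0 passed in limma. Of these, 7 were higher and 2 lower, with a median log2 difference of 0.03. The group means of galene, CG34396, CG43155 and CG10864 were 4.43 to 4.82, not far above the 4.23 that bounds the dimmest 25% of rows. Task6, an acid-sensitive type of leak channel, read 8.45, 8.52 and 8.41 log2 units in the pool, against 8.10, 8.12 and 8.30 in controls. Its pool values all lay above its control values, opposite to Ork1, at a difference of 0.29 with a standard error of 0.070 (limma adjusted p = 0.0873). It passed when limma's variance was fitted with a trend and robust settings (adjusted p = 0.0230) and without control replicate 3 (0.0407). CG43155 followed at 0.09 (adjusted p = 0.714), and the remaining genes lay between -0.06 and 0.06.

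Of 12 voltage-gated and calcium-gated potassium channel genes 11 were measured, KCNQ having no row under that symbol alone, and 0 passed. Of the 11, 9 were higher and 2 lower, with a median of 0.07. SK, a small-conductance calcium-activated channel, stood at 0.14 (limma adjusted p = 0.309) and sei, the fly member of the ERG family, also at 0.14 (0.342). Among these 20 other potassium channel genes 16 were higher in the pool, 15 after quantile normalization and 13 with arrays scaled to a common median. Centring lowers the difference of every row alike, and over all named genes it left 4911 of 13402 higher, against 6660 as deposited. All 5 inward rectifier and leak channel genes were lower under each of the 3 scalings, under which 50.3%, 51.4% and 63.4% of all named genes were lower.

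The 4 potassium channel partners were higher and 0 passed, with a median of 0.17. Hk, the beta subunit of Shaker channels, stood at 0.22 (limma adjusted p = 0.199) and Slob, a binding partner of the Slowpoke channel, at 0.14 (0.288). Sur, the sulphonylurea receptor, which in mammals joins inward rectifiers to form channels closed by ATP, read 4.42 ± 0.14 in the pool and 4.23 ± 0.11 in controls (SD, n = 3 each) (adjusted p = 0.363), and its control mean lay just under the 4.23 that bounds the dimmest 25% of rows.

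**Figure D4:**
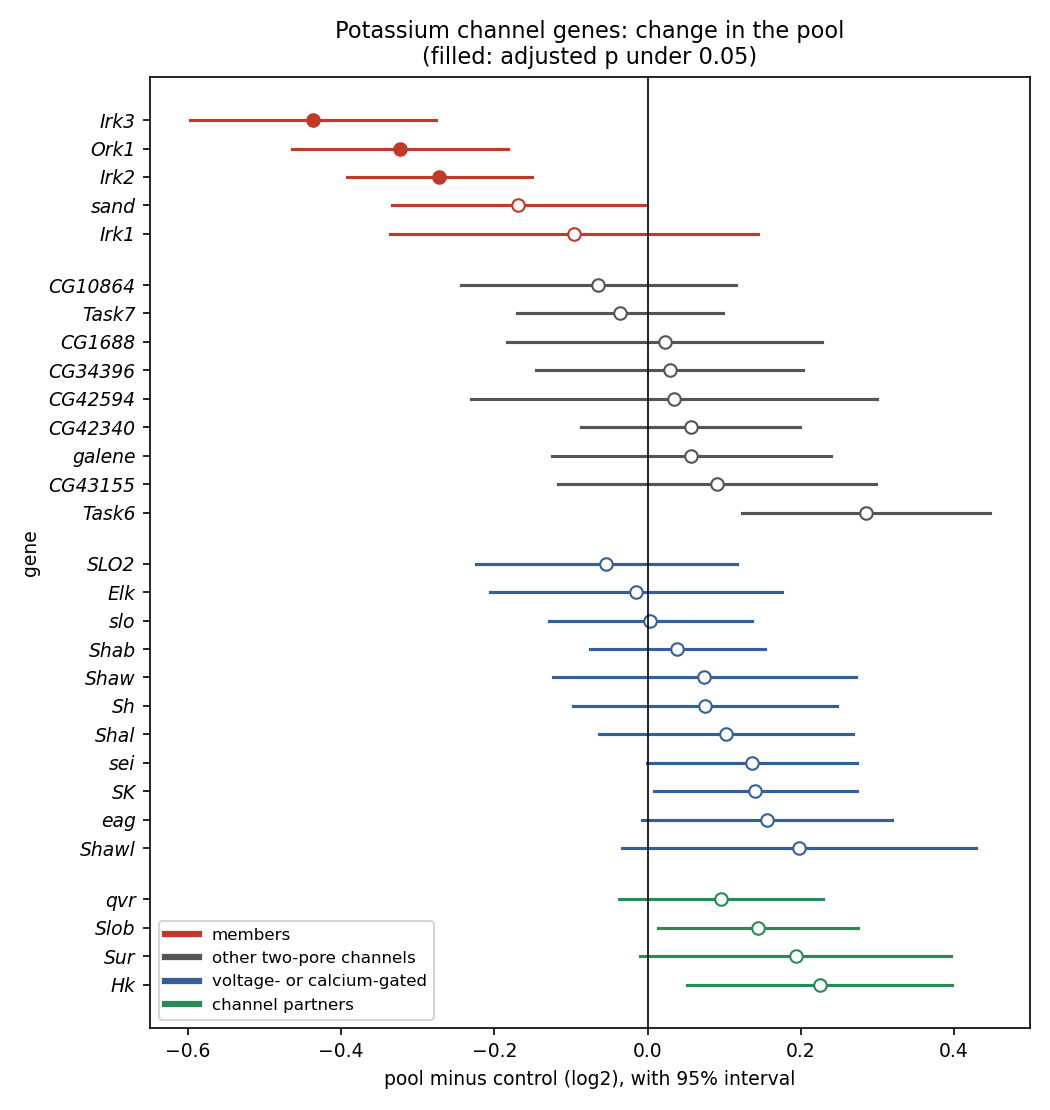
Log2 difference, pool minus control, with its 95% interval from limma for the 5 inward rectifier and leak channel genes (red), 9 other two-pore channel genes (grey), 11 voltage-gated or calcium-gated channel genes (blue) and 4 partner genes (green). Filled points passed an adjusted p of 0.05, which Irk3, Ork1 and Irk2 did. The other groups centre slightly above 0, with Task6 highest at 0.29.

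Genes that set the potassium gradient or act on it beside these channels also gave 0 calls. In the sodium pump list 4 of 5 genes were measured, with a median of 0.01. The beta subunit gene nrv3 stood at 0.09 (limma adjusted p = 0.458) and the alpha subunit gene JYalpha at 0.12 (0.395). JYalpha read only 3.82 to 4.05 log2 units, among the dimmest 25% of rows, so its difference tells little about alpha subunit RNA. Atpalpha had no row under that symbol alone. The count and median of the sodium pump list include nrv2, at -0.07. Both nrv2 and Atpalpha are RNAi targets in the pool, so this list is not independent of the pooled lines. Of 9 genes of chloride cotransport and Wnk kinase signalling 8 were higher, 6 after quantile normalization and 5 with arrays scaled to a common median, with a median of 0.04. The exception as deposited was NKCC, a cation-chloride cotransporter gene, which read 8.21, 8.13 and 8.23 log2 units in the pool, against 8.56, 8.40 and 8.43 in controls. These groups were 0.17 apart, and the difference of -0.27 was about that of Irk2 but did not pass (limma adjusted p = 0.0669). It passed with the trend and robust settings (0.0166). The potassium-chloride cotransporter gene kcc stood at 0.15 (adjusted p = 0.231).

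The 4 genes of the sodium leak channel complex, whose current opposes the potassium leak at rest, had a median of 0.04 with 0 passing. The accessory subunit gene unc79 stood at 0.16 (limma adjusted p = 0.212) and Mid1 at 0.07 (0.730). The 7 sodium, calcium and pacemaker channel genes had a median of 0.01, which was below 0 after quantile normalization or centring, and 0 passed. The sodium channel auxiliary gene tipE stood at 0.08 (0.571) and the calcium channel gene Ca-alpha1T at 0.05 (0.720). Over the 7 lists 0 of 48 measured genes were called by limma, 8 had an unadjusted p under 0.05, and 2 were called with the trend and robust settings. Over all rows, 14.8% had an unadjusted p under 0.05 and 5.28% were called with the trend and robust settings, so these counts are near the background. In all, 377 of 13402 named genes were called.

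Markers of cell types were set beside these values, and their part in the falls was not tested. Of 15 glial markers 14 were measured, 2 fell and 0 rose, with a median of -0.07. The 2 were cortex glia genes, wrapper at -0.47 and zyd at -0.42 (limma adjusted p = 0.00299 and 0.0149), and repo stood at -0.18 (0.162). Of the 14, 9 were lower and 5 higher, the highest being moody, a surface glia gene, at 0.20 (0.134). Mdr65, also a surface glia gene, went the other way, at -0.20 (0.144). The summed linear signal of the glial list was 14545 to 15100 on pool arrays and 14824 to 15276 on control arrays, so these ranges overlapped. The glial counts, median and sums include nrv2, at -0.07, which is itself an RNAi target in the pool. Of 8 measured neuronal markers 0 passed, with a median of 0.02 and overlapping sums of 7920 to 8245 in the pool and 7726 to 8222 in controls. Muscle markers rose in 5 of 7 (sums of 13814 to 14070 in the pool, against 11403 to 11475 in controls) and photoreceptor markers in 1 of 6 (31687 to 32736, against 29415 to 29726). Of 7 fat body markers 2 rose and 5 were lower without passing (48111 to 48987 in the pool, against 49204 to 49899 in controls). Among the 5 were the yolk protein genes Yp1, Yp2 and Yp3, at -0.11, -0.11 and -0.19. Of 6 hemocyte markers 2 fell (2042 to 2110, against 2464 to 2490). These were PPO1 and PPO2, both at -0.36. Of the other 4, Hml and He were lower, at -0.17 and -0.08, and NimC1 and Pxn higher, at 0.18 and 0.02, without passing. Of 7 digestive tract markers 4 rose (990 to 1135, against 939 to 1046), while Amy-p and Amy-d stood at -0.54 and -0.33 without passing. Whether each marker was detected was not tested, and the hemocyte marker He lay among the dimmest 25% of rows.

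Genes next to or over the 5 channel genes are given as a description. RefSeq places 4 genes over a member and 10 next to one on either side, and 12 of the 14 were measured. Limma called 0 of the 12, with or without the trend and robust settings, and 2 had an unadjusted p under 0.05, CG10348 beside Irk3 and uno over sand. With 2.90% of all rows called and 14.8% under an unadjusted p of 0.05, these counts are near what any 12 rows would give. Grip71, a gene of the microtubule-nucleating gamma-tubulin complex that overlaps Irk3, stood at 0.01 (adjusted p = 0.977), although it turned to -0.02 with arrays scaled to a common median. Faf2 and CG10348, on either side of Irk3, stood at -0.11 and 0.20 (limma adjusted p = 0.418 and 0.236). CG1637 beside Ork1 stood at -0.01, and CG34289 and CG10177 beside Irk2 both at 0.05. The rows of CG34289 and CG10177 were among the dimmest 25%, so their differences tell little about their RNA. The transcription factor gene cnc, which overlaps Irk1, stood at 0.04, with CG13829 at -0.01 and fzo at -0.07 on its sides. The gene uno stood at -0.12 (adjusted p = 0.332), with its pool values all below its control values, close to the -0.17 of sand. The sources used here do not say which strand the rows read. Beside sand, sut3 stood at 0.10 and Tmem63 at 0.04, and CG46310 over Irk1 and lncRNA:CR45616 beside Ork1 were not measured under a symbol of their own. The rows of sut3 and CG13829 were also among the dimmest 25%.

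Profiles over the 6 arrays were compared after each row's own mean was taken off, by the root mean square distance in log2 units. Nearest to Irk3 were Orct, an organic cation transporter gene, at 0.035, Cdc7 at 0.043 and yin at 0.046. Orct read 7.06, 7.01 and 7.11 in the pool, against 7.36, 7.51 and 7.56 in controls, and shared with Irk3 the low value of control replicate 1 among controls. Nearest to Irk2 were CG9686 at 0.023, scaRNA:MeU2-48 at 0.025 and CG3906 at 0.025. Nearest to Ork1 were CG4829 at 0.031, colt, a mitochondrial carnitine carrier gene, at 0.036 and CG43673 at 0.040. All 9 of these genes were called lower in the pool by limma, which follows from choosing rows near a called one. Nearest to sand were TTLL6A at 0.024, CG7556 at 0.024 and the chitinase-family gene Cht9 at 0.026, and nearest to Irk1 were CG42753 and CG5382 at 0.035 and Atac1 at 0.035. None of these 6 was called.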

How the data were processed

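RNA of 3 pool and 3 control arrays was measured; arrays carry no read depth, and their number limits the precision. The deposited values are log2 numbers, 1 per row and array, made by the authors with Affymetrix Expression Console, per the submitters' processing notes; the log2 scale was inferred from their range. Its version and algorithm, the normalization and the build are not stated. Values were used as deposited, so a normalization between arrays, if made, has taken out any shift shared by most genes. Rows were named by the platform annotation: 13441 had 1 symbol, 555 several and 2326 none. RefSeq (Release 6 plus ISO1 MT) gave neighbours by gene coordinates, and no sequences are used here.

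Pool minus control was fitted by lmFit and eBayes of limma 3.58.1, under R 4.3.3, over all 16322 rows without a filter, two-sided, and p-values were Benjamini-Hochberg adjusted. Array medians were 5.53 to 5.63, and the median standard error of a difference was 0.0677. Pairs of genes were compared by exact permutation (scipy 1.17.1). The fit was first tested on simulated data. Same-numbered arrays did not deviate together (correlations -0.014, -0.005 and 0.090), so the replicate number is an alternative. Others were quantile normalization, centring on the median, a filter on dim rows, rows with 1 symbol, trend and robust eBayes, array weights, the mean of a gene's rows, and each array left out.

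The members, 7 pathway lists and 7 marker lists were chosen with earlier results of these data known. Named were the members, up to 4 called genes per pathway list or else 2 of smallest p, the neighbours, and 3 nearest profiles per member; markers and targeted genes were named as checks.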

Additional observations from a re-analysis of the deposited data

How the results depend on the processing

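The number of the 5 genes called was 3 as deposited and under quantile normalization, centring on the median, the dim-row filter, rows with 1 symbol, trend and robust eBayes and array weights; it was 0 to 1 with an array left out. With the replicate block, whose numbers are not shown to pair the arrays, it was 0 (adjusted p = 0.0574 for Irk3, 0.0666 for Ork1 and 0.091 for Irk2), and 312 rows were called against 473. Replicate 3 alone matched best across groups by its own number. The pathway lists had 0 called genes as deposited, 2 with trend and robust eBayes (Task6 and NKCC) and 0 to 1 with an array left out, the 1 being Task6 without control replicate 3; their median was 0.02 to 0.07 under all settings. Trend and robust eBayes called 861 rows, against 473.

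Differences near 0 changed sign. With an array left out the change of Irk1 minus sand was -0.0647 to 0.204 and that of Irk2 minus Ork1 -0.00719 to 0.0919. Over the same settings Irk1 was -0.163 to 0.0124, positive without control replicate 1. CG13829 was -0.114 to 0.0458, Grip71 was -0.0566 to 0.0698, CG1637 -0.0432 to 0.0212, CG5382 -0.112 to 0.0465 and Atac1 -0.132 to 0.0263. CG13829 was 0.0247 with array weights, and Grip71 was -0.0239 with arrays scaled to a common median. The cause of these changes was not tested. Of 606 values of single genes under alternatives, 512 kept direction and side of the threshold, 78 fell short of it, 3 passed it and 13 changed sign. All 78 belonged to the genes called as deposited, namely Irk2, Irk3, Ork1 and their 9 nearest profiles. The other genes were not called as deposited and could not fall short. The dim-row filter, rows with 1 symbol, the replicate block and trend and robust eBayes leave a difference unchanged, so its direction could not change there.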
